A study of Homo sapiens with 24 samples.

Results

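The polyamine synthesis and salvage genes described here are 10 named genes, ODC1, AMD1, SRM, SMS, SAT1, SMOX, OAZ1, OAZ2, AZIN1 and MTAP, out of 23354 genes in the count table, and all 10 had a row in it. They were chosen by name, not by a measured value, though with earlier results of these data known. They lie on chromosomes 2 (ODC1), 6 (AMD1), 1 (SRM), X (SMS and SAT1), 20 (SMOX), 19 (OAZ1), 15 (OAZ2), 8 (AZIN1) and 9 (MTAP), and reads were counted over exons that span between 1.139 kb (OAZ1) and 5.589 kb (MTAP). Sequenced RNA came from MV4-11 and from KG-1a, both established human lines of acute myeloid leukemia (AML), either nontreated (NT) or exposed to 1 μM 8CA (8-chloro-adenosine) or 1 μM 8AA (8-amino-adenosine) for 8 h or 24 h. Both analogs are adenosine altered at its adenine base, by chlorine in 8CA and by an amino group in 8AA. MV4-11 is known for a KMT2A-AFF1 fusion and an internal tandem duplication of FLT3, and KG-1a is a CD34-positive line. Each of the 12 groups had 2 libraries, called A and B, and every treated group was compared with the NT group of the same line and hours. Nothing says that A and B came from separate cultures, so the p-values measure only the spread between these libraries, which may be technical.

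Putrescine, spermidine and spermine are small cations that bind RNA and DNA and that dividing cells make in large amounts. ODC1 makes putrescine from ornithine, AMD1 decarboxylates S-adenosylmethionine to the aminopropyl donor, and SRM and SMS add the aminopropyl group to make spermidine and then spermine. Each of these additions leaves methylthioadenosine, which MTAP cleaves so that adenine and methionine are regained, and this is how the pathway is tied to the methionine cycle. SAT1 acetylates spermidine and spermine for export or breakdown, and SMOX oxidises spermine back to spermidine. The antizymes OAZ1 and OAZ2 bind ODC1 and send it to the proteasome, and AZIN1, a decoy that resembles ODC1, takes antizyme away from it.

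Total counts lay between 18633963 and 24520078 per library, and the 10 genes together took between 0.175% and 0.253% of them. All 10 passed the filter on low counts in both lines. SMOX had the fewest reads, between 58 and 204 counts per library, and OAZ1 the most, up to 28425. The KG-1a 8AA 24 h pair stood apart: its libraries differed by a chi-square of 12.3 per degree of freedom, against 1.43 to 5.20 in the other 11 pairs, so the main responses to 8AA in KG-1a at 24 h are also given without each of its libraries. The defining genes of the lines were read as follows. LYZ was between 2665 and 3773 CPM (counts scaled by library size and TMM factor) and FLT3 between 426 and 621 CPM in MV4-11, and CD34 was between 325 and 629 CPM in KG-1a but at most 0.175 CPM in MV4-11. HOXA9, listed as a marker of MV4-11, was lower there (7.11 to 9.40 CPM) than in KG-1a (22.3 to 27.8 CPM). Of 6 myeloid markers, CD33 (at most 1.02 CPM) and MPO (at most 2.16 CPM) were near 0 in KG-1a and SPI1 was at 5.86 to 7.81 CPM. PTPRC (688 to 788 CPM), RUNX1 (427 to 483 CPM) and CEBPA (58.2 to 88.5 CPM) were read there. The T-cell genes CD3D (174 to 264 CPM) and CD3E (22.2 to 78.3 CPM) were read in every KG-1a library and were at 0 in MV4-11. The markers of other cell types summed to between 4.77 and 9.14 CPM in MV4-11, and in KG-1a to between 284 and 293 CPM in the NT libraries, 207 and 215 with 8CA at 24 h, and 275 and 335 with 8AA at 24 h. MS4A1 and EPCAM were at 0 in all 24 libraries. The part of these markers in the results was not tested. In bulk RNA, fewer cells of a type and less RNA per cell cannot be told apart.

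Levels of different genes are compared here as CPM per kb of exon. OAZ1 was the highest of the 10 in every group, with a mean of 979 ± 32.4 CPM per kb (SD, n = 2) in NT MV4-11 at 8 h and 349.6 ± 5.24 in KG-1a. In MV4-11 SRM (175 ± 9.09), ODC1 (155 ± 8.40), AZIN1 (103 ± 2.28), SMS (74.5 ± 4.49) and AMD1 (62.2 ± 3.91) followed. MTAP (15.3 ± 0.391), OAZ2 (14.6 ± 0.0477), SAT1 (6.86 ± 0.517) and SMOX (2.68 ± 0.125) closed the order. In KG-1a at 8 h ODC1 (253 ± 1.95) stood above SRM (179 ± 14.0), and OAZ2 (34.9 ± 0.225) above MTAP (27.1 ± 1.21). The libraries of neighbours in these orders did not overlap. The neighbours that did overlap were SRM and ODC1 as well as MTAP and SAT1 in MV4-11 with 8AA at 8 h, SRM and ODC1 in MV4-11 with 8CA at 24 h, and SRM, SMS, AMD1 and OAZ2 in turn in KG-1a with 8AA at 24 h.

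Between the NT lines at 8 h, 7 of the 10 genes were called by the quasi-likelihood test of edgeR (adjusted p below 0.05), beside 82.2% of all genes tested, 42.1% lower and 40.1% higher in MV4-11. OAZ1 was higher in MV4-11 by 1.49 ± 0.06 on the log2 scale (SE) and SMOX by 1.13 ± 0.16. OAZ2 was lower in MV4-11, with a log2 difference of -1.26 ± 0.06, as were SAT1 (-1.20 ± 0.09), MTAP (-0.83 ± 0.06), ODC1 (-0.70 ± 0.06) and AZIN1 (-0.12 ± 0.04). The AZIN1 call was lost without library B of either NT group, with adjusted p of 0.108 and 0.116, and under 5 other settings of scaling, filter or tool (0.0937 to 0.41). At 24 h, 8 of 10 were called, beside 82% of all genes, 41% lower and 41% higher. AZIN1 was not among them (log2 difference 0.03 ± 0.04), and AMD1 (0.17 ± 0.07) and SRM (0.19 ± 0.07) were, although both calls were lost when single libraries were left out: AMD1 without NT MV4-11 B (adjusted p = 0.344) or NT KG-1a A or B (0.0543 and 0.159), and SRM without NT MV4-11 A (0.082) or NT KG-1a A (0.114). Neither was called when libraries were scaled by their totals alone (0.5 and 0.274). Put as a ratio within a library, OAZ1 stood 6.39 and 6.21 times above ODC1 per kb in NT MV4-11 at 8 h, but 1.39 and 1.37 times in NT KG-1a.

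**Figure D1:**
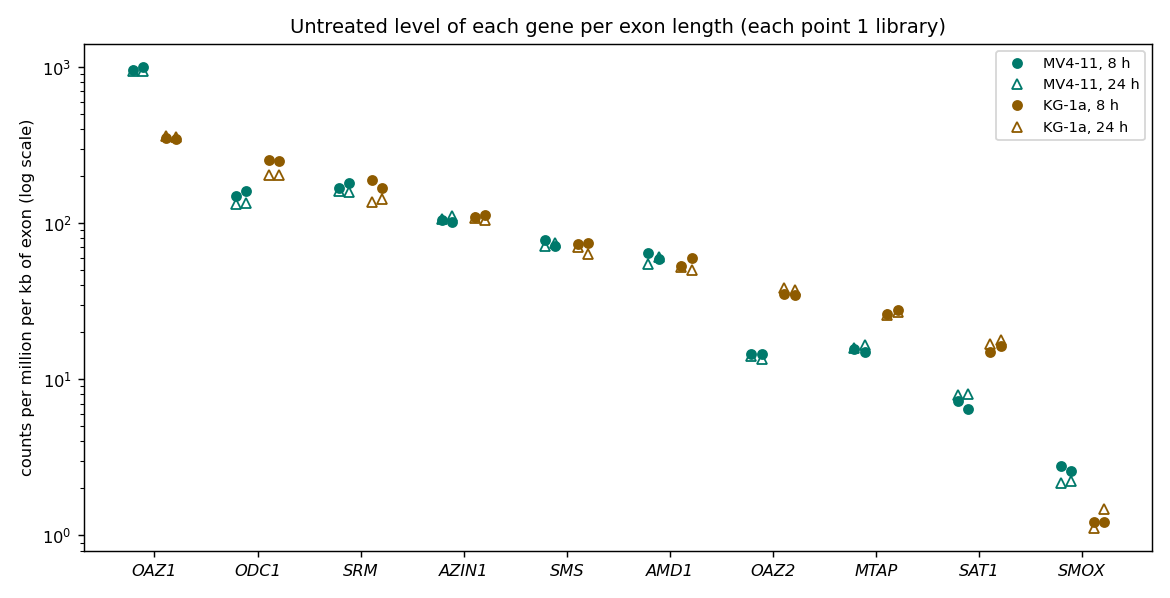
Level of each gene in NT cells, as CPM per kb of exon on a log axis, 1 point per library, circles at 8 h and triangles at 24 h, MV4-11 in green and KG-1a in brown. OAZ1 lies near 979 CPM per kb in MV4-11 and 349.6 in KG-1a, and OAZ2, MTAP, SAT1 and ODC1 lie lower in MV4-11.

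NT cells also moved between 8 h and 24 h. ODC1 was lower at 24 h in NT MV4-11, by a log2 difference of -0.21 ± 0.05 (adjusted p = 0.024), the 1 gene called of 10 beside 5.54% of all genes, 2.16% lower and 3.38% higher. In NT KG-1a 2 of 10 were called, beside 4.45% of all genes (1.97% lower and 2.49% higher), ODC1 (-0.30 ± 0.05, adjusted p = 0.0056) and SRM (-0.33 ± 0.07, adjusted p = 0.0174). None of these 3 calls held against the loss of each library. In MV4-11 ODC1 reached an adjusted p of 0.147 without NT 8 h B, 0.116 without NT 24 h A and 0.127 without NT 24 h B. In KG-1a ODC1 reached 0.0724 and 0.0799 without NT 24 h A and B, and SRM 0.153, 0.175 and 0.116 without NT 8 h A, NT 24 h A and NT 24 h B.

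At 24 h more of the 10 genes were called lower than higher in each drug comparison, and the comparisons of a line share their NT libraries. The lower calls of AMD1, OAZ1 and MTAP with either drug in MV4-11 and of OAZ2 with 8CA there were lost in some alternative. So were those of MTAP and SMS with 8CA in KG-1a, as given with each gene. With 8CA in MV4-11 9 of 10 were called, 7 lower and 2 higher, beside 43.9% of all genes tested, 22.7% lower and 21.2% higher. With 8AA in MV4-11 6 of 10 were called, all lower, beside 29.1% (15.3% lower and 13.9% higher). At an unadjusted p below 0.05 there were also 6 lower and 0 higher, and the Wald test of DESeq2 called 6. Other settings gave fewer. AMD1 and MTAP lost their calls when libraries were scaled by their totals alone or by upper quartile. AMD1 and OAZ1 lost theirs when all 24 libraries were fitted together. With 8CA in KG-1a 8 of 10 were called, 6 lower and 2 higher, beside 47.4%, 24% lower and 23.4% higher. In KG-1a 8AA called 7 of 10, 5 lower and 2 higher, beside 51.9%, 26.6% lower and 25.4% higher. The median log2 fold change of the 10 genes lay between -0.24 and -0.19 in these 4 comparisons, and that of all genes between 0.00 and 0.01.

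At 8 h the counts were smaller with 8CA. In MV4-11 8CA called 4 of 10, 3 lower and 1 higher, beside 10.4% of all genes, 5.77% lower and 4.58% higher. That count depended on the fit: it was 1 with only the 6 libraries of the line and time, and 2 with all 24 libraries fitted together. In the main fit 8AA called 6 in MV4-11, 5 lower and 1 higher, beside 29.2%, 15.6% lower and 13.6% higher. In KG-1a 8AA called 6, 3 lower and 3 higher, beside 34.7%, 18% lower and 16.7% higher. With 8CA in KG-1a the quasi-likelihood test of edgeR called 0 of 10, beside 0.881% of all genes, 0.181% lower and 0.7% higher. There 3 genes, ODC1, SMS and SMOX, had an unadjusted p below 0.05, the smallest adjusted p was 0.301, and the Wald test of DESeq2 also called 0. Of the 46 calls against NT, 28 held in every alternative and 18 were lost when some library was left out. Treated and NT libraries that did not overlap, in either direction, were common among all genes tested. With 8CA and 8AA this held for 73.6% and 66.3% of them in MV4-11 at 24 h, and for 76.8% and 72.1% in KG-1a. At 8 h it held for 51.6% and 62.1% in MV4-11 and 47% and 68.5% in KG-1a. Between 8CA and 8AA libraries it held for 61.3% in MV4-11 and 66% in KG-1a at 24 h, and 47.1% and 70.8% at 8 h.

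**Figure D2:**
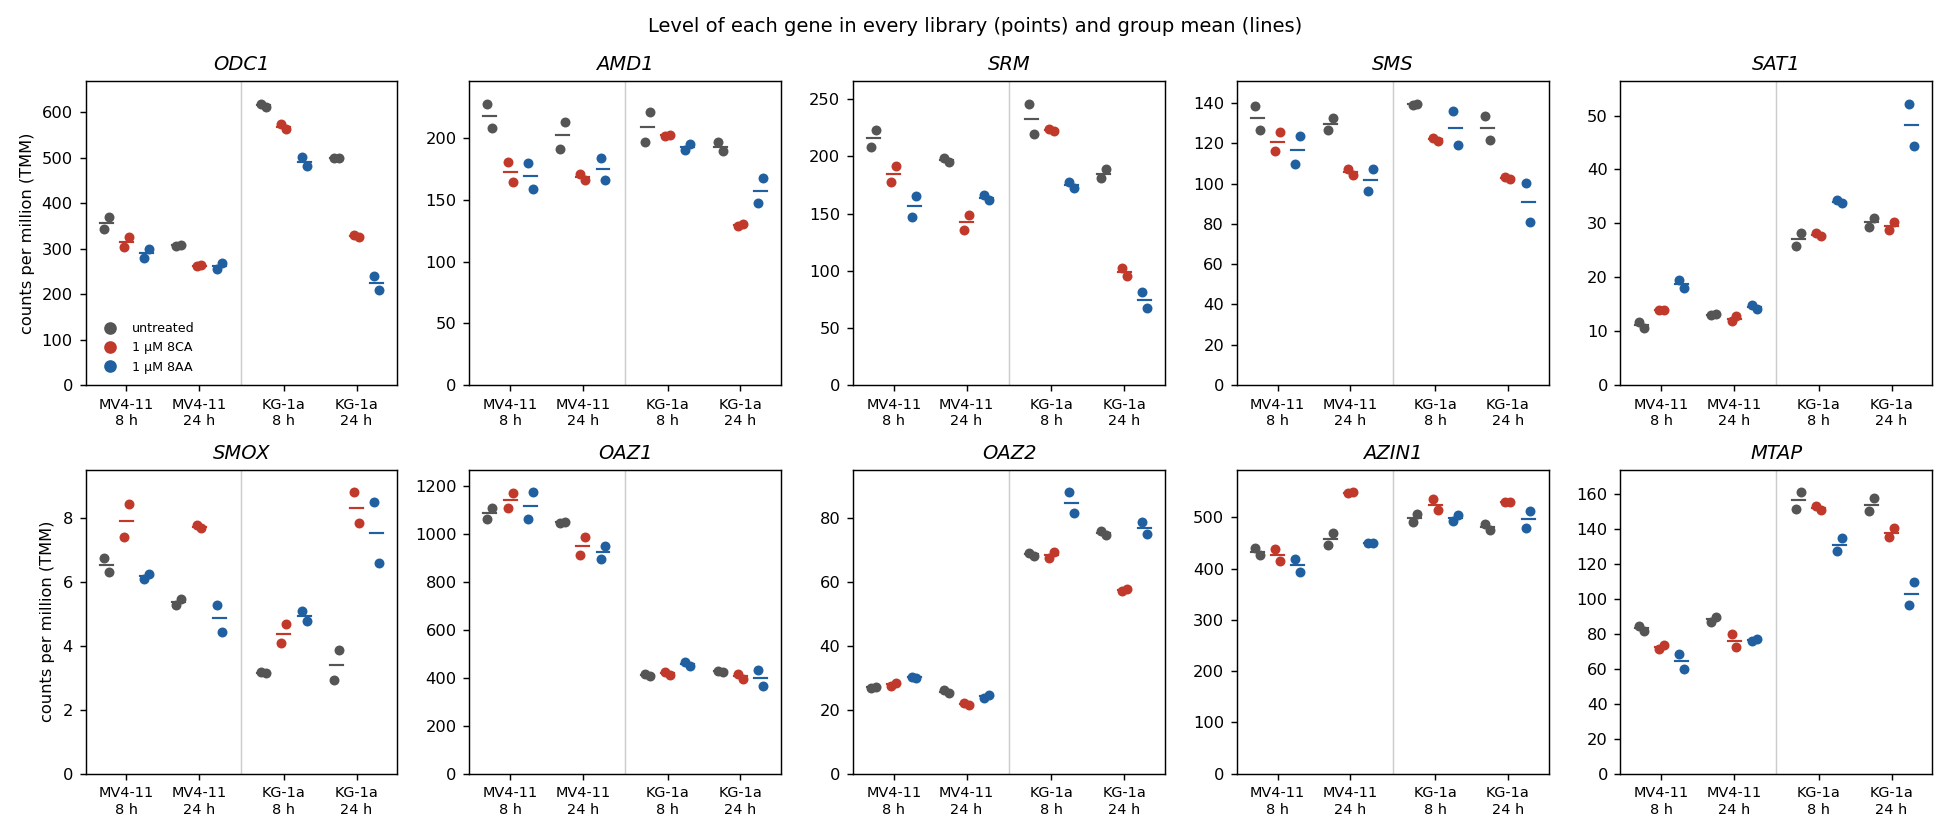
CPM of each gene in every library, 2 points per group with a line at the group mean, all axes from 0, NT in grey, 8CA in red and 8AA in blue. ODC1 and SRM in KG-1a step down from NT to 8CA to 8AA at 24 h, to 210.0 and 67.4 CPM in their lowest libraries, and SAT1 with 8AA lies at 44.3 and 52.2 CPM.

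ODC1, the first enzyme of the pathway, was lower in 7 of the 8 comparisons. In KG-1a at 24 h the NT libraries held 499 and 499 CPM, those with 8CA 330.3 and 326 CPM, and those with 8AA 241 and 210.0 CPM. The 3 groups did not overlap. On the log2 scale ODC1 with 8CA differed from NT by -0.60 ± 0.05 (adjusted p = 2.92e-07), and with 8AA by -1.15 ± 0.05 (3.99e-10), or 0.452 of the NT level. Without library A or B of 8AA it was -1.25 or -1.05. At 8 h ODC1 in KG-1a was at 619.7 and 611 CPM in NT cells, 574 and 564 with 8CA, and 502 and 481 with 8AA. Only 8AA passed the test there (-0.32 ± 0.05, adjusted p = 0.000203), and 8CA gave -0.11 ± 0.05 (adjusted p = 0.372).

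In MV4-11 ODC1 fell less at 24 h, by the test between lines given further on. It was at 306 and 309 CPM in NT cells, 261 and 265 with 8CA, and 254 and 269 with 8AA. Both drug groups lay below NT and overlapped each other, with log2 fold changes of -0.22 ± 0.05 (adjusted p = 0.00223) and -0.23 ± 0.05 (adjusted p = 0.00306). At 8 h the NT libraries were at 343 and 369 CPM, 8CA at 304 and 326 and 8AA at 279.9 and 300.1. ODC1 changed by -0.30 ± 0.05 with 8AA (adjusted p = 0.000451) and by -0.18 ± 0.05 with 8CA (adjusted p = 0.0378). The 8CA call at 8 h was lost without NT B (-0.136) and without 8CA A (-0.141). In the edgeR test it was also lost with scaling by totals alone (adjusted p = 0.0507) or upper quartile (0.0592). The same held with the 6 libraries of the line and time (0.0923) or all 24 libraries (0.0576) in the fit.

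SRM, the spermidine synthase, gave the largest fall of the 10 genes in KG-1a. Its NT libraries at 24 h held 181 and 189 CPM, those with 8CA 103 and 95.4, and those with 8AA 81.8 and 67.4. The groups did not overlap, and the log2 fold changes were -0.90 ± 0.07 (adjusted p = 1.5e-07) and -1.31 ± 0.08 (adjusted p = 2.77e-09), or 0.536 and 0.404 of the NT level. Without library A or B of 8AA the second was -1.46 or -1.18. In KG-1a at 8 h SRM was at 246 and 219.6 CPM in NT cells, 224 and 222 with 8CA, and 178 and 173 with 8AA. Those with 8CA lay within the NT range (-0.06 ± 0.07, adjusted p = 0.777) and those with 8AA below it (-0.41 ± 0.07, adjusted p = 0.00039).

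In MV4-11 the order of the drugs for SRM was not the same at both hours. At 8 h the NT libraries held 208 and 223 CPM, 8CA 178 and 192 and 8AA 147 and 166, and the log2 fold changes were -0.22 ± 0.06 (adjusted p = 0.0303) and -0.46 ± 0.06 (adjusted p = 5.56e-05). At 24 h the values were 199 and 195 CPM in NT cells, 136 and 149 with 8CA and 167 and 161 with 8AA, with changes of -0.47 ± 0.06 (adjusted p = 2.35e-05) and -0.26 ± 0.06 (adjusted p = 0.00484). The 8CA libraries were the lower pair at 24 h and the upper of the treated pairs at 8 h, and the change of order itself was not tested. The 8CA call at 8 h was lost without NT B (adjusted p = 0.144) and without 8CA A (0.148). The row of SRM overlaps that of LOC100133331 on the same strand, and RefSeq lists 3 SRM pseudogenes. Reads that match more than 1 of these may have been counted for SRM or left out. Within a library, SRM stood 1.96 and 2.24 times above SMS per kb in NT KG-1a at 24 h and 1.177 and 1.202 times with 8AA.

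ODC1 and SRM are the genes of the list best known as targets of MYC, which binds the E-box CACGTG, so their start regions are shown with that of SAT1, which rose, for comparison. The runs are RefSeq sequence on GRCh38.p14, from 250 bases before a transcript start to 20 bases from it, 5′ to 3′ on the gene's strand, with each CACGTG in capitals. They are SRM at chr1:11059999-11060268 (minus strand), the start of ODC1 at chr2:10447993-10448262 (minus strand) and SAT1 at chrX:23782923-23783192 (plus strand).
SRM: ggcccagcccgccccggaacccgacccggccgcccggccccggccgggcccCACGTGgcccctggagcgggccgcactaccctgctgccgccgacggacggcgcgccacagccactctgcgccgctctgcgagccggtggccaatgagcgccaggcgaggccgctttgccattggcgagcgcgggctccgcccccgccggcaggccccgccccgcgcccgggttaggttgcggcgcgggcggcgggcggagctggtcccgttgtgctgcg
ODC1: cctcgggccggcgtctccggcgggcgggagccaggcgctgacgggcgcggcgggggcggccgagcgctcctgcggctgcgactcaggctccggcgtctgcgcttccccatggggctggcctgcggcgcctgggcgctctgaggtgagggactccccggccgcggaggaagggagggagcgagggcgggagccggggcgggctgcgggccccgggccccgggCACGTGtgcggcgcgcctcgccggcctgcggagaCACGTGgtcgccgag
SAT1: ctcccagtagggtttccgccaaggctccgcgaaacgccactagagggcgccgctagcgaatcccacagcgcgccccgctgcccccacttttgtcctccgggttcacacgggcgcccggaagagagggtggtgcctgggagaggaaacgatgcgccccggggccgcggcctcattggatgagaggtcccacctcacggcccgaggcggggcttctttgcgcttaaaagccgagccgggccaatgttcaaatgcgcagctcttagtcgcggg
The E-box begins 199 bases before the start in SRM, and in ODC1 29 bases before the start and at base 6 after it. CACGTG reads the same on both strands. In windows of 300 bases, from 250 before to 50 after a start, it was found in 7.26% of 35116 RefSeq windows. Among the 10 genes, 8 had such a window, and 2 of these 8, SRM and 1 of 2 ODC1 starts, held a CACGTG. This is a count of genes, while the 7.26% is of windows, and AMD1 had 3 windows. The windows of AMD1, SMS, MTAP and OAZ1, whose calls against NT were all lower, held none. Neither did those of SAT1 and OAZ2. The part of MYC in these changes was not tested. SMOX and AZIN1 had no entry. A match in letters is a description of the sequence only.

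AMD1, which makes the aminopropyl donor, fell in KG-1a at 24 h and more so with 8CA. Its NT libraries held 197 and 189 CPM, those with 8CA 129 and 131, and those with 8AA 147 and 168. The 3 groups were separate, and the log2 fold changes were -0.57 ± 0.06 (adjusted p = 2.89e-06) and -0.30 ± 0.06 (adjusted p = 0.000918) in that order. AMD1 is thus a gene where 8CA gave the lower level in KG-1a, unlike ODC1 and SRM. Without library A or B of 8AA the second value was -0.20 or -0.40. At 8 h in KG-1a AMD1 passed with neither drug: the changes were -0.05 ± 0.06 (adjusted p = 0.825) and -0.12 ± 0.06 (adjusted p = 0.159).

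In MV4-11 AMD1 was called in all 4 comparisons. At 8 h it was at 228 and 208 CPM in NT cells, 180.2 and 165 with 8CA and 180.0 and 158 with 8AA, and changed by -0.34 ± 0.07 (adjusted p = 0.00847) and -0.37 ± 0.07 (adjusted p = 0.00138). At 24 h NT held 191 and 213 CPM, 8CA 171 and 166 and 8AA 184 and 166, with changes of -0.26 ± 0.07 (adjusted p = 0.00805) and -0.21 ± 0.07 (adjusted p = 0.04). All treated libraries lay below their NT libraries. Leaving out 1 library ended 3 of these calls: 8CA at 8 h without NT A (adjusted p = 0.0826) or 8CA B (0.0798), 8CA at 24 h without NT B (0.133) or 8CA B (0.0625), and 8AA at 24 h without NT B (0.315) or 8AA B (0.286). The row of AMD1 overlaps that of CDK19 on the other strand, and RefSeq lists 4 AMD1 pseudogenes. Reads that match more than 1 of these may have been counted for AMD1 or left out.

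For SMS, the spermine synthase, the values at 24 h come first. In KG-1a at 24 h it was at 133 and 122 CPM in NT cells, 103 and 102 with 8CA and 100.4 and 81.0 with 8AA, and changed by -0.31 ± 0.08 (adjusted p = 0.00528) and -0.49 ± 0.08 (adjusted p = 0.000129). In MV4-11 at 24 h it was at 127 and 132 CPM in NT cells, 107 and 104 with 8CA and 96.4 and 107 with 8AA, and changed by -0.29 ± 0.07 (adjusted p = 0.0022) and -0.35 ± 0.07 (adjusted p = 0.00121). The treated libraries lay below the NT libraries in all 4 comparisons at 24 h. Without NT A the 8CA call in KG-1a had an adjusted p of 0.0605, and without library A or B of 8AA the 8AA value was -0.66 or -0.35. At 8 h SMS was called once, with 8AA in MV4-11 (-0.18 ± 0.07, adjusted p = 0.0496). That call was lost without NT A (-0.12) or 8AA A (-0.099), and it stood in 4 of 9 other settings of scaling, filter, tool, block or libraries fitted. The other changes at 8 h lay between -0.19 and -0.13.

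MTAP, the salvage enzyme, was called lower in 6 of the 8 comparisons. In KG-1a its NT libraries at 24 h held 150.3 and 158 CPM, those with 8CA 135 and 140.5 and those with 8AA 96.3 and 109.9. All were separate, with log2 fold changes of -0.16 ± 0.06 (adjusted p = 0.0392) and -0.58 ± 0.06 (adjusted p = 1.16e-06). The 8CA call was lost without NT B (adjusted p = 0.22), 8CA A (0.195) or 8CA B (0.0757), and without library A or B of 8AA the 8AA value was -0.49 or -0.68. At 8 h in KG-1a MTAP was at 152 and 161 CPM in NT cells and 127 and 135 with 8AA (-0.26 ± 0.06, adjusted p = 0.00366, or 0.0543 without 8AA A), and 8CA gave -0.04 ± 0.06 (adjusted p = 0.85).

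In MV4-11 MTAP was lowest with 8AA at 8 h, at 68.6 and 60.1 CPM against 84.7 and 81.5 in NT cells (-0.37 ± 0.06, adjusted p = 0.000439). With 8CA at 8 h it was at 71.1 and 73.5 CPM, below both NT libraries, but did not pass the test (-0.20 ± 0.06, adjusted p = 0.0541). At 24 h NT held 86.6 and 89.8 CPM, 8CA 79.8 and 72.6 and 8AA 76.1 and 77.1, with changes of -0.21 ± 0.06 (adjusted p = 0.012) and -0.20 ± 0.06 (adjusted p = 0.0223). The 8CA call at 24 h was lost without NT B (adjusted p = 0.0936) or 8CA B (0.149), and the 8AA call without any 1 of its 4 libraries, NT A (0.0574), NT B (0.129), 8AA A (0.0964) or 8AA B (0.0724). MTAP was read in both lines, and its row overlaps those of CDKN2A and CDKN2B on the other strand and CDKN2B-AS1 on its own. Reads from the shared regions may have been counted for MTAP or left out.

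SAT1, the acetyltransferase of polyamine breakdown, rose with 8AA. In MV4-11 at 8 h the NT libraries held 11.7 and 10.5 CPM, those with 8CA 13.9 and 13.8 and those with 8AA 19.5 and 18.0. The groups were separate, and the log2 fold changes were 0.32 ± 0.09 (adjusted p = 0.041) and 0.75 ± 0.09 (adjusted p = 2.03e-05) in that order. The 8CA call was lost without any 1 of its 4 libraries, with adjusted p of 0.0694 and 0.259 without NT A and B and 0.15 and 0.14 without 8CA A and B. At 24 h in MV4-11 SAT1 was at 12.9 and 13.1 CPM in NT cells, 11.8 and 12.7 with 8CA and 14.9 and 14.1 with 8AA, and neither drug passed (-0.09 ± 0.09 and 0.16 ± 0.09, adjusted p = 0.468 and 0.21).

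In KG-1a SAT1 rose with 8AA at both hours. At 8 h the NT libraries held 25.8 and 28.3 CPM and 8AA 34.2 and 33.8 (0.33 ± 0.08, adjusted p = 0.00566, or 0.0596 without NT A). At 24 h NT held 29.4 and 30.9 CPM, 8CA 28.8 and 30.2, and 8AA 52.2 and 44.3. The 8AA libraries stood above all others, with a log2 fold change of 0.68 ± 0.08 (adjusted p = 3.16e-06), or 1.60 times the NT level, and of 0.55 or 0.79 without library A or B. The 8CA libraries overlapped NT (-0.03 ± 0.08, 95% interval -0.21 to 0.15).

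SMOX, the spermine oxidase, rose with both drugs in KG-1a. Its counts were low: the NT libraries at 24 h held 2.92 and 3.86 CPM, those with 8CA 8.82 and 7.85 and those with 8AA 8.52 and 6.60. Both drug groups stood above NT and overlapped each other, with log2 fold changes of 1.30 ± 0.16 (adjusted p = 1.21e-05) and 1.17 ± 0.17 (adjusted p = 2.63e-05), or 2.47 and 2.25 times the NT level. Without library A or B of 8AA the second was 0.96 or 1.33. At 8 h 8AA gave 5.10 and 4.78 CPM against 3.18 and 3.15 in NT cells (0.64 ± 0.18, adjusted p = 0.012), a call lost without NT A (0.0515), NT B (0.0679) or 8AA A (0.0697).

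In MV4-11 SMOX rose with 8CA at 24 h, from 5.29 and 5.46 CPM in NT cells to 7.78 and 7.69 (0.52 ± 0.12, adjusted p = 0.0025). With 8AA it was at 5.30 and 4.45 CPM, overlapping NT (-0.14 ± 0.13, adjusted p = 0.468). At 8 h 8CA gave 7.40 and 8.45 CPM against 6.77 and 6.33 in NT cells and did not pass (0.27 ± 0.12, adjusted p = 0.164), and 8AA gave 6.09 and 6.27 (-0.08 ± 0.12).

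Of the regulators of ODC1 protein, OAZ1 lay between 895 and 1173 CPM in all MV4-11 libraries and between 367 and 464 CPM in all KG-1a libraries. It was called in 2 comparisons, both at 24 h in MV4-11, where NT held 1045 and 1049 CPM, 8CA 912 and 988 (-0.14 ± 0.05, adjusted p = 0.0479) and 8AA 895 and 948 (-0.18 ± 0.05, adjusted p = 0.019). Both treated pairs lay below NT, but the calls were lost without NT A (adjusted p = 0.138 and 0.0659), NT B (0.137 and 0.0678) or replicate A of the drug (0.346 and 0.107). In KG-1a at 24 h OAZ1 was at 427 and 426 CPM in NT cells, 416 and 395 with 8CA and 432 and 367 with 8AA. Both 8CA libraries lay below NT without passing the test (-0.07 ± 0.06, adjusted p = 0.35). The 8AA pair spanned the other groups, and the 8AA value of -0.09 ± 0.06 was -0.22 without 8AA A and 0.02 without 8AA B. The row of OAZ1 overlaps that of SPPL2B on the same strand.

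OAZ2 moved in opposite directions in KG-1a. At 8 h its libraries held 69.1 and 68.3 CPM in NT cells and 88.2 and 81.7 with 8AA (0.31 ± 0.05, adjusted p = 0.000389). At 24 h NT held 76.0 and 74.8 CPM, 8CA 57.3 and 57.8 (-0.39 ± 0.05, adjusted p = 2.96e-05) and 8AA 78.7 and 75.0 (0.03 ± 0.05, adjusted p = 0.681, and -0.01 or 0.06 without library A or B of 8AA). The 8CA pair stood below all other KG-1a pairs. In MV4-11 OAZ2 was lower with 8CA at 24 h, at 22.1 and 21.5 CPM against 26.1 and 25.2 (-0.23 ± 0.07, adjusted p = 0.0104), a call lost without NT A (0.0732) or 8CA B (0.0632). The other 4 OAZ2 comparisons did not pass and lay between -0.08 and 0.16.

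AZIN1 rose with 8CA at 24 h. In MV4-11 it was at 447 and 469 CPM in NT cells, 547 and 549 with 8CA and 451 and 450.1 with 8AA. Both 8CA libraries stood above all other MV4-11 libraries (0.26 ± 0.04, adjusted p = 0.000248), and the 8AA pair overlapped NT (-0.02 ± 0.04, 95% interval -0.12 to 0.07). In KG-1a 8CA gave 530.1 and 530.3 CPM against 487 and 475 (0.14 ± 0.04, adjusted p = 0.0157). That call was lost without any 1 of its 4 libraries, with adjusted p of 0.0691 and 0.121 without NT A and B and 0.0791 and 0.0806 without 8CA A and B. The 8AA value in KG-1a was 0.05 ± 0.04 (adjusted p = 0.406), and it was 0.09 without 8AA A and -0.0046 without 8AA B.

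**Figure D3:**
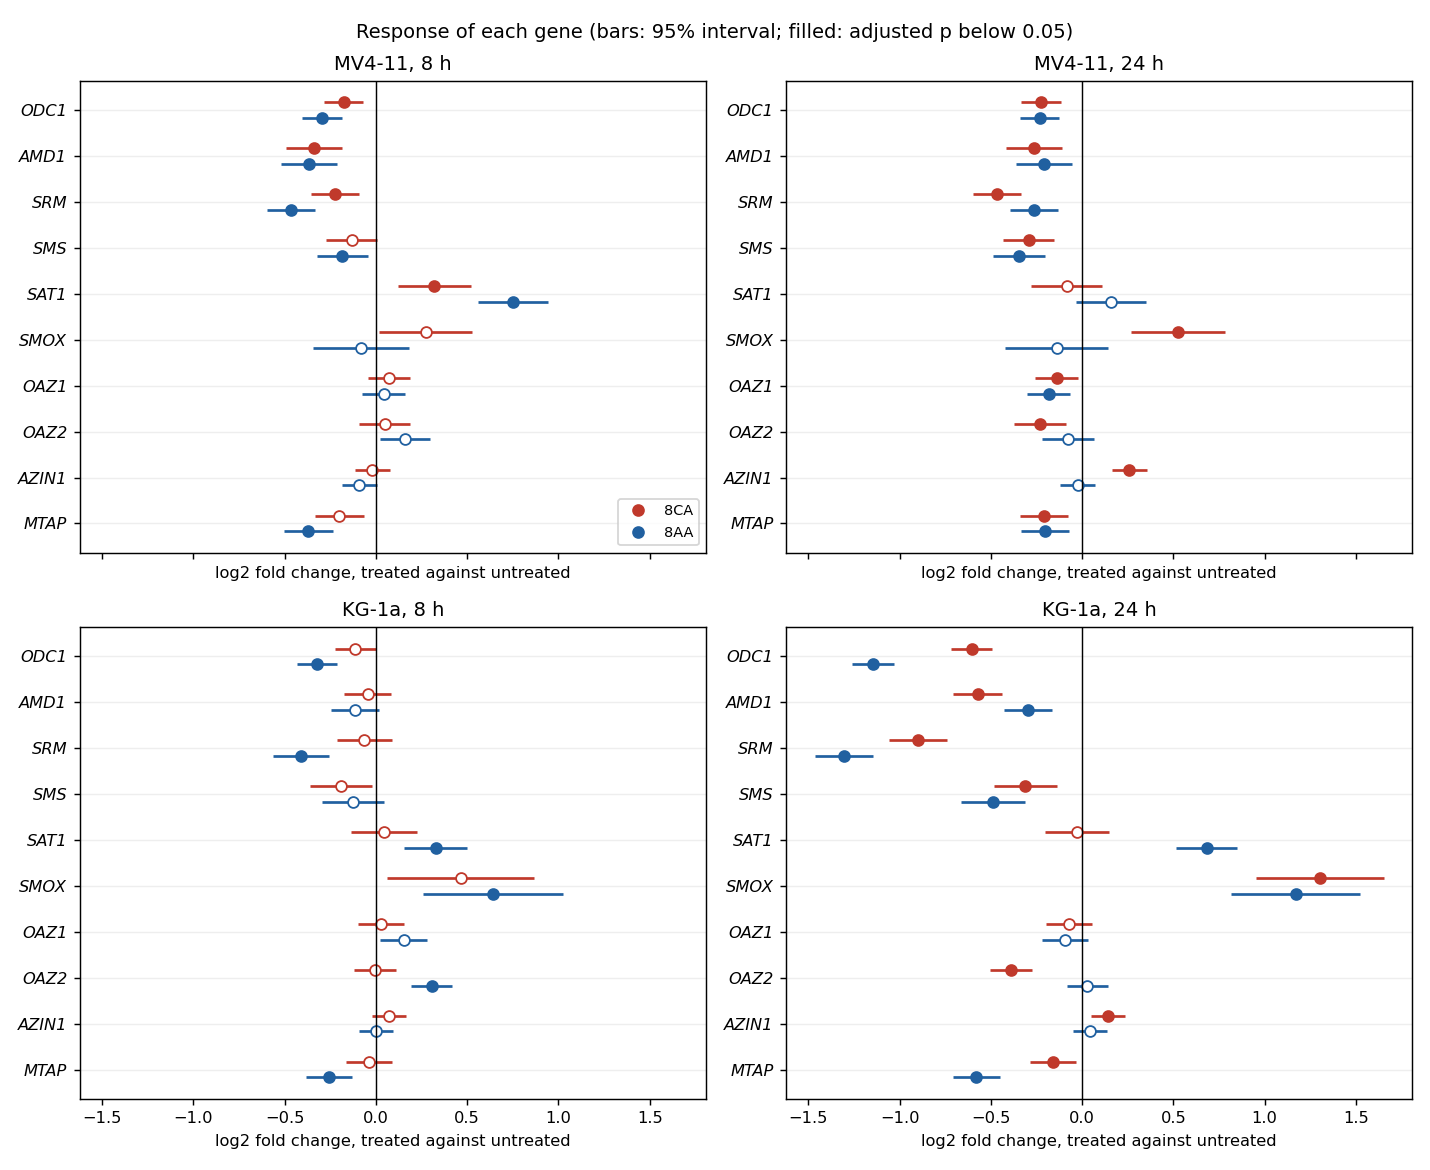
Log2 fold change of each gene against NT with its 95% interval, 8CA in red and 8AA in blue, 1 panel per line and time, filled where the adjusted p was below 0.05. In KG-1a at 24 h SRM reaches -1.31 with 8AA and SMOX 1.30 with 8CA, while in MV4-11 the 24 h changes stay between -0.47 and 0.52.

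The analogs, which differ by the group on the base, were compared at matched dose and hours, 1 pair in 4 settings, and p-values were adjusted over all genes in each. In KG-1a at 24 h 6 of 10 genes differed, beside 42% of all genes tested, 21.7% lower and 20.3% higher with 8AA. With 8AA, ODC1 was lower than with 8CA by a log2 difference of -0.54 ± 0.05 (adjusted p = 1.24e-06), MTAP by -0.42 ± 0.06 (5.07e-05) and SRM by -0.41 ± 0.08 (0.000579). SAT1 was higher with 8AA by 0.71 ± 0.08 (adjusted p = 3.57e-06), OAZ2 by 0.42 ± 0.05 (1.8e-05) and AMD1 by 0.28 ± 0.06 (0.00239). These 6 differences kept their direction without library A and without library B of 8AA, where ODC1 was -0.64 and -0.45, MTAP -0.33 and -0.52, SRM -0.56 and -0.28, SAT1 0.58 and 0.82, OAZ2 0.38 and 0.45 and AMD1 0.37 and 0.18. In the same fits OAZ1 was at -0.15 and 0.09, SMS at -0.34 and -0.03 and AZIN1 at -0.05 and -0.14. Each of these fits holds 1 library of 8AA, so the spread of that pair no longer enters it and its calls are not read. SMOX did not differ beyond its error (-0.13 ± 0.14, 95% interval -0.42 to 0.16).

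In KG-1a at 8 h 5 of 10 differed, beside 30.4% of all genes, 15.8% lower and 14.7% higher. SRM (-0.35 ± 0.07, adjusted p = 0.00179), MTAP (-0.22 ± 0.06, 0.0121) and ODC1 (-0.21 ± 0.05, 0.00645) were lower with 8AA, and OAZ2 (0.31 ± 0.05, 0.000435) and SAT1 (0.28 ± 0.08, 0.0148) higher. Those of OAZ2 and SRM held without each library. ODC1 lost its call without 8CA A (adjusted p = 0.0608) or 8AA B (0.0784), MTAP without 8CA A (0.0836), 8CA B (0.058) or 8AA A (0.124), and SAT1 without any 1 of the 4 (0.0612 to 0.0916).

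In MV4-11 fewer genes told the analogs apart. At 24 h 3 of 10 differed, beside 21.2% of all genes, 9.48% lower and 11.7% higher. SMOX was lower with 8AA by a log2 difference of -0.66 ± 0.12 (adjusted p = 0.00135) and AZIN1 by -0.28 ± 0.04 (0.000394), and SRM was higher by 0.21 ± 0.06 (0.0284). The SRM call was lost without 8CA A (adjusted p = 0.287), 8AA A (0.151) or 8AA B (0.0806). ODC1 (-0.01, 95% interval -0.12 to 0.10), MTAP (0.01, -0.13 to 0.14), AMD1 (0.05, -0.10 to 0.21) and SMS (-0.05, -0.20 to 0.09) did not differ beyond their intervals. At 8 h 2 of 10 differed, beside 6.66%, 3.7% lower and 2.96% higher. SAT1 was higher with 8AA (0.43 ± 0.09, adjusted p = 0.00718) and SRM lower (-0.24 ± 0.06, 0.0315). Both were lost without 8CA B (0.0507 and 0.213) and without 8AA A (0.0622 and 0.235).

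**Figure D4:**
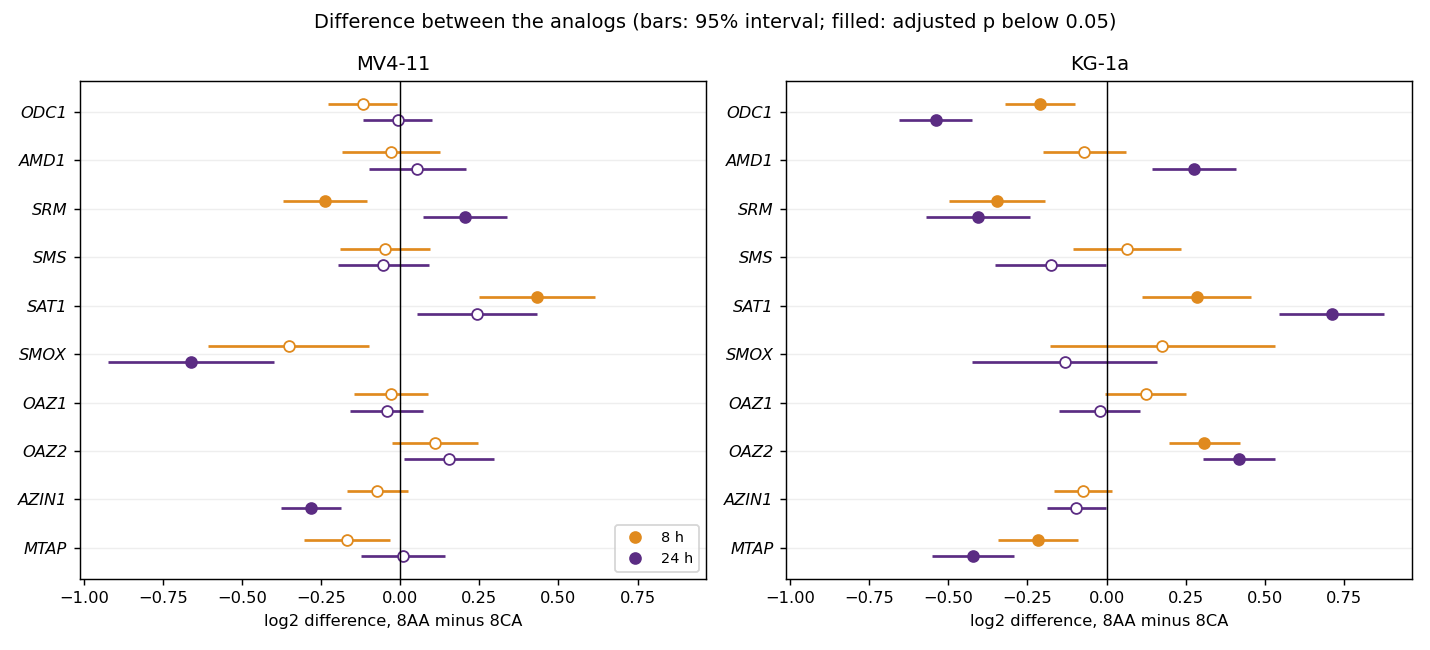
Log2 difference 8AA minus 8CA of each gene with its 95% interval, at 8 h in orange and 24 h in purple, filled where the adjusted p was below 0.05. In KG-1a at 24 h the values run from -0.54 for ODC1 to 0.71 for SAT1, and in MV4-11 SMOX at -0.66 lies farthest from 0.

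The difference of the responses between 24 h and 8 h was tested in the same fits. In KG-1a it was called for 5 of 10 genes with 8CA, beside 23.9% of all genes (12.7% lower and 11.2% higher), and for 6 with 8AA, beside 18.3% (10.7% lower and 7.64% higher). SRM and ODC1 fell further at 24 h with both drugs, SRM by -0.83 ± 0.10 and -0.90 ± 0.10 and ODC1 by -0.49 ± 0.07 and -0.82 ± 0.07. Without 8AA 24 h A or B the 8AA values were -1.05 or -0.77 for SRM and -0.93 or -0.73 for ODC1. For SAT1 with 8AA in KG-1a the difference was 0.35 ± 0.11 (adjusted p = 0.0413), but this call was lost without any 1 of 7 libraries (0.0502 to 0.172, with 0.22 in place of 0.35 without 8AA 24 h A) and with the Wald test of DESeq2 (0.0789). In MV4-11 it was called for 2 of 10 with 8CA, AZIN1 and SAT1, beside 16.3% (9.83% lower and 6.48% higher), and for SAT1 alone with 8AA, beside 4.63% (2.12% lower and 2.51% higher). Those of ODC1, SRM and AZIN1 held without each library, and both SAT1 calls in MV4-11 did not, with adjusted p of up to 0.183 with 8CA and 0.082 with 8AA when 1 NT 8 h library, B, was left out. For SRM in MV4-11 8CA gave -0.24 ± 0.09 (adjusted p = 0.0697) and 8AA 0.20 ± 0.09 (0.215), neither past the threshold.

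Responses were compared between the lines in 1 model over the 24 libraries. At 24 h 4 of 10 genes differed with 8CA, beside 11.2% of all genes (5.44% lower and 5.76% higher), and 5 with 8AA, beside 22.3% (8.51% lower and 13.8% higher). With 8CA these were ODC1 (0.40 ± 0.08, adjusted p = 0.00124), SRM (0.45 ± 0.10, 0.00564), AMD1 (0.33 ± 0.10, 0.0355) and SMOX (-0.76 ± 0.20, 0.017). The AMD1 call was lost without NT KG-1a A (0.129) and 6 other single libraries, and the SMOX call without NT MV4-11 B (0.0625), NT KG-1a A (0.157) or KG-1a 8CA A (0.0715). With 8AA, the fall of SRM was smaller in MV4-11 by 1.06 ± 0.11 (adjusted p = 1.48e-07), that of ODC1 by 0.93 ± 0.08 (1.37e-08) and that of MTAP by 0.40 ± 0.09 (0.00189), and the changes of SMOX (-1.29 ± 0.21, 8.77e-05) and SAT1 (-0.50 ± 0.12, 0.00296) were lower in MV4-11. Without KG-1a 8AA A or B, SRM was at 1.21 or 0.86, ODC1 at 1.03 or 0.76, MTAP at 0.30 or 0.42, SMOX at -1.08 or -1.53 and SAT1 at -0.38 or -0.69, all in the same direction. SMS was at 0.33 without A and -0.06 without B, and OAZ1 was at 0.05 without A and -0.26 without B. At 8 h 2 of 10 differed with 8AA, SAT1 (0.46 ± 0.12, adjusted p = 0.0132) and SMOX (-0.68 ± 0.22, 0.0426), beside 11.1%, 3.6% lower and 7.49% higher. SMOX lost the call without any 1 of the 8 libraries (0.0651 to 0.13), and SAT1 without NT MV4-11 B (0.0921), MV4-11 8AA A (0.0534) or NT KG-1a B (0.0745). With 8CA at 8 h the test of edgeR called 0 of 10, beside 1.15% (0.726% lower and 0.427% higher), with 2 (AMD1 and SAT1) at an unadjusted p below 0.05 and 0 by the Wald test of DESeq2. OAZ2 and AZIN1 passed this test in none of the 4 settings, though both had an unadjusted p below 0.05 with 8CA at 24 h. SMS and OAZ1 also passed in none, with values between -0.07 and 0.16. With 8AA at 24 h the values of SMS and OAZ1 turned on the KG-1a 8AA pair: OAZ1 was at -0.26 without its library B, and SMS at 0.33 without its library A.

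**Figure D5:**
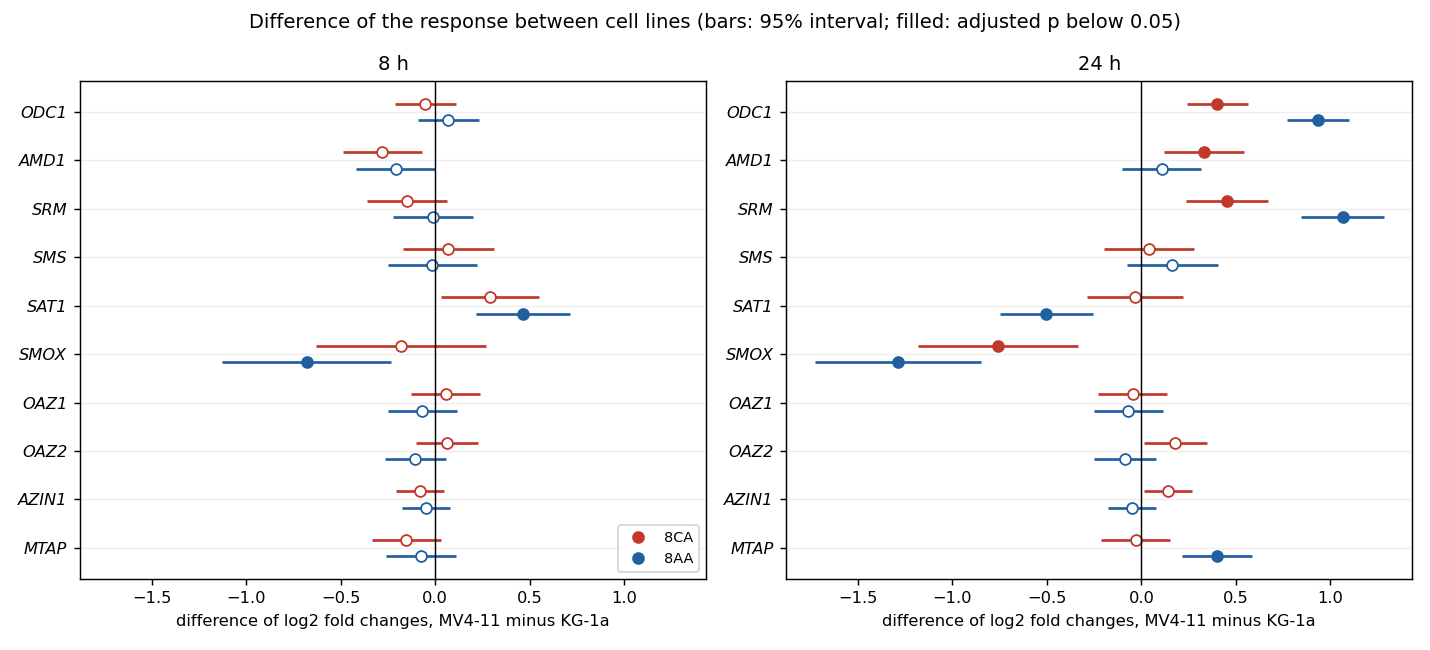
Difference of log2 fold changes, MV4-11 minus KG-1a, of each gene with its 95% interval, 8CA in red and 8AA in blue, filled where the adjusted p was below 0.05. At 24 h with 8AA SRM lies at 1.06, ODC1 at 0.93 and SMOX at -1.29, and SMS and OAZ1 span 0 in both panels.

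Other genes were taken from a list of 29, most of them of the pathway. The list also held the 9p21 neighbours of MTAP, CDKN2A and CDKN2B, and the 4 MYC network genes named below. The low-count filter left 27 of the 29 in MV4-11 and 26 in KG-1a. At 24 h, 5 were lower and 4 higher with 8CA in MV4-11, 4 and 2 with 8AA in that line, and in KG-1a 9 and 3 with 8CA against 12 and 3 with 8AA. The shares of all genes called, in either direction, were 43.9%, 29.1%, 47.4% and 51.9% in these comparisons, and nothing particular to the list is read from its counts. At 8 h the counts in the same order were 4 and 1, 9 and 5, 1 and 1, and 9 and 4, beside 10.4%, 29.2%, 0.881% and 34.7% of all genes. At 24 h EIF5A was the gene that passed with 1 direction under each drug in each line. It is the translation factor that carries hypusine, an amino acid made from spermidine. In MV4-11 EIF5A was at 690.1 and 699 CPM in NT cells, 448 and 467 with 8CA and 521 and 537 with 8AA, and in KG-1a at 359 and 375, 239.9 and 233, and 245 and 207. The treated libraries lay below NT throughout, with log2 fold changes of -0.60, -0.39, -0.63 and -0.70 in that order. The last was -0.83 or -0.58 without library A or B of 8AA. Among the other hypusine genes, named after their values were seen, 2 were lower in part: DOHH, the hydroxylase, with 8CA in both lines (-0.33 and -0.51) and 8AA in KG-1a (-0.41), and DHPS, the deoxyhypusine synthase, with 8AA in KG-1a (-0.34).

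Of the 4 MYC network genes on the list, MYC, MAX, MXI1 and MXD4, MYC is named here after its values were seen. At 24 h it rose with 8CA in both lines, from 590.0 and 582 CPM to 730.2 and 749 in MV4-11 (0.34) and from 441 and 455 to 560.0 and 548 in KG-1a (0.31). With 8AA it fell in KG-1a, to 308 and 265 CPM (-0.64, or -0.76 or -0.54 without library A or B of 8AA), and did not pass in MV4-11 (0.09). At 8 h MYC fell with 8AA in both lines, from 525 and 500.4 CPM to 284 and 264 in KG-1a (-0.90) and from 677 and 684 to 495 and 509.7 in MV4-11 (-0.44). With 8CA at 8 h it did not pass (0.05 in KG-1a and -0.13 in MV4-11). SLC3A2, a subunit of amino acid transporters also held to carry polyamines, was likewise named after its values were seen: at 24 h with 8CA it was at 794 and 778 CPM in KG-1a against 228 and 233 in NT cells (1.77) and rose in MV4-11 (0.36), and with 8AA it fell in both (-0.24 in KG-1a, or -0.33 or -0.17 without library A or B of 8AA, and -0.45 in MV4-11).

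Over the 24 libraries, with each line centred on its own mean, SRM and ODC1 had the closest profiles of the members that reached a mean of 3 log2 CPM in both lines, which SMOX did not (Pearson r = 0.979). Of 8444 genes at that level, those most like SRM were HDHD5 (0.989), SCARB1 (0.989) and IPO4 (0.988), those most like ODC1 were IPO4 (0.988), MRPS23 (0.987) and GFM1 (0.982), and those most like SAT1 were PBX2 (0.918), SLC25A42 (0.911) and METTL7A (0.906). SAT1 and MTAP ran against each other (-0.856). These coefficients describe 12 groups in 2 lines that share drugs, hours and NT libraries.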

How the data were processed

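RNA from 24 libraries was measured by RNA sequencing. The authors deposited 1 table of raw read counts per gene for all libraries. Per the labels, reads were trimmed with Trimmomatic, aligned with STAR 2.6.0 and counted with HTSeq 0.11.1, and edgeR was used. The submitters' processing notes name both hg19 and hg38 without a role, and 14.1% of 22414 genes matched by symbol overlapped their GRCh38 position, so no coordinate of the table is printed. The strand setting of the counting was not given in the sources used here.

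From these counts, genes were kept with filterByExpr (minimum count 10) and scaled with TMM. They were tested with the quasi-likelihood F-test of edgeR 4.0.16 in R 4.3.3, and p-values were adjusted by Benjamini-Hochberg across every gene in the fit (called below 0.05). The 12 libraries of a line were fitted together (12800 genes in MV4-11, 12711 in KG-1a), and all 24 (14055 genes) for differences between lines. Alternatives changed the scaling, filter, tool (DESeq2 1.42.0), libraries fitted and replicate block, or left out each library. The 10 genes were all named. From the pathway list, genes called in 1 direction in all 4 comparisons at 24 h were named, and for SRM, ODC1 and SAT1 the 3 genes with the highest correlation of log2 CPM (prior count 2). Members and lists were chosen with earlier results of these data known. The script was tested on simulated counts.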

Additional observations from a re-analysis of the deposited data

Results flagged for a closer look

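The responses of the 10 genes differed between hours or between lines, by a test of the difference itself, in 25 cases. For the difference of the response at 24 h minus 8 h in KG-1a with 8CA, SRM gave -0.83, AMD1 -0.53, ODC1 -0.49, OAZ2 -0.39 and SMOX 0.84 on the log2 scale. With 8AA in KG-1a SRM gave -0.90, ODC1 -0.82, SMS -0.36, MTAP -0.32, OAZ2 -0.28 and SAT1 0.35. In MV4-11 SAT1 gave -0.41 with 8CA and -0.59 with 8AA, and AZIN1 0.28 with 8CA. ODC1, SRM, AMD1 and AZIN1, and OAZ2 with 8CA, stayed past the threshold without each library. SMOX in KG-1a with 8CA, SMS, MTAP, OAZ2 and SAT1 in KG-1a with 8AA, and SAT1 in MV4-11 with both drugs did not. The highest adjusted p was 0.19 for SMS (without KG-1a 8AA 8 h A), 0.172 for SAT1 in KG-1a (without NT 8 h B), 0.138 for SMOX (without NT 24 h A), 0.102 for OAZ2 (without 8AA 8 h A) and 0.0725 for MTAP (without NT 24 h B).

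For the difference between lines, MV4-11 minus KG-1a, the response to 8AA at 24 h gave 1.06 for SRM, 0.93 for ODC1, 0.40 for MTAP, -0.50 for SAT1 and -1.29 for SMOX. The response to 8CA at 24 h gave 0.45 for SRM, 0.40 for ODC1, 0.33 for AMD1 and -0.76 for SMOX. The response to 8AA at 8 h gave 0.46 for SAT1 and -0.68 for SMOX. AMD1 and SMOX with 8CA at 24 h and both values at 8 h were lost without single libraries, up to an adjusted p of 0.174 for AMD1 (without NT MV4-11 A), 0.157 for SMOX at 24 h (without NT KG-1a A), 0.13 for SMOX at 8 h (without KG-1a 8AA A) and 0.0921 for SAT1 (without NT MV4-11 B).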

How the results depend on the processing

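Of 3260 recomputed values of the 10 genes, 2997 stayed on the same side of the threshold with the same direction, 185 lost a call, 55 gained one and 23 turned direction, and none of the turned values was called. The causes of these changes were not tested. With 2 libraries per group, leaving out 1 leaves a lone library that is assumed to vary like the other groups. ODC1 and SRM in KG-1a at 24 h kept their calls in every alternative with both drugs. SMOX, with the fewest reads, is the least precise.

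With the 6 libraries of a line and time, genes called went from 0 to 1 for 8CA in KG-1a at 8 h, from 4 to 1 for 8CA in MV4-11 at 8 h and from 2 to 1 for 8AA minus 8CA in MV4-11 at 8 h, and with all 24 libraries the last 2 went to 2 and 1. For the time difference in MV4-11 with 8CA, the count went from 2 to 1 with DESeq2 size factors, the Wald test of DESeq2, library size only or upper quartile. With 8AA it went from 1 to 0 with the Wald test and to 2 without a filter. For the line difference at 8 h, it went from 2 to 1 with the Wald test for 8AA and from 0 to 1 without a filter for 8CA.

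The labels give the letters A and B no shared batch, and they were not taken to pair the samples. Same-letter deviations correlated between -0.117 and 0.159 in MV4-11 (6 of 15 pairs over 0.1) and between -0.085 and 0.161 in KG-1a (2 of 15). Among the MV4-11 8 h groups all 3 correlations were over 0.1 (0.132 to 0.159). With the replicate block 0 calls were lost and 10 gained, among them MTAP with 8CA (adjusted p = 0.0253) and ODC1 in 8AA minus 8CA (0.0444) in MV4-11 at 8 h, and the time difference in MV4-11 went to 5 genes with 8CA and 2 with 8AA.

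Leaving out 1 library gave these ranges of genes called. In MV4-11 they were 1 to 2 (8CA 8 h), 5 to 6 (8AA 8 h), 6 to 8 (8CA 24 h) and 3 to 4 (8AA 24 h), and in KG-1a 0 to 0, 4 to 6, 6 to 6 and 7 to 9 in that order. For 8AA minus 8CA at 8 h and 24 h they were 0 to 2 and 2 to 3 in MV4-11 and 2 to 3 and 6 to 8 in KG-1a. For the time difference with 8CA and 8AA they were 1 to 3 and 0 to 2 in MV4-11 and 4 to 5 and 3 to 8 in KG-1a. For the line difference they were 0 to 0 (8CA 8 h), 0 to 1 (8AA 8 h), 2 to 3 (8CA 24 h) and 5 to 6 (8AA 24 h). Between NT lines they were 7 to 7 at 8 h and 6 to 7 at 24 h, and between NT hours 0 to 1 in MV4-11 and 0 to 2 in KG-1a.

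With library size only, AZIN1 turned to 0.0263 with 8AA in MV4-11 at 24 h and to -0.0791 between NT lines at 24 h, and OAZ1 in KG-1a at 24 h to 0.00126 with 8AA and 0.0457 for 8AA minus 8CA. With upper quartile SRM turned to 0.050 between NT lines at 8 h. Leaving out 1 library turned other values, given here as log2 ranges. AMD1 ran from -0.12 to 0.0397 (8CA, KG-1a 8 h) and for 8AA minus 8CA in MV4-11 from -0.033 to 0.122 at 24 h and -0.121 to 0.0707 at 8 h. AZIN1 ran from -0.0046 to 0.0891 (8AA, KG-1a 24 h) and MTAP from -0.067 to 0.0700 (8AA minus 8CA, MV4-11 24 h). OAZ1 in KG-1a at 24 h ran from -0.218 to 0.017 with 8AA and -0.145 to 0.0894 for 8AA minus 8CA, in MV4-11 at 8 h from -0.0347 to 0.114 and -0.0955 to 0.0424, and for the line difference (8AA 24 h) from -0.259 to 0.0527. SMOX in KG-1a ran from -0.339 to 0.0283 (8AA minus 8CA, 24 h) and -0.115 to 0.289 (NT hours). SMS for 8AA minus 8CA at 8 h ran from -0.0339 to 0.158 in KG-1a and -0.132 to 0.0339 in MV4-11, and for the line difference (8AA 24 h) from -0.058 to 0.328. SRM ran from -0.145 to 0.0254 (8CA, KG-1a 8 h) and -0.105 to 0.0571 (NT lines, 8 h). With library size only the median of all genes moved to 0.11 with 8AA in KG-1a at 24 h and -0.11 between NT lines at 24 h. The share of lower genes among all calls then lay between 35.5% and 41.8% in 6 comparisons with NT, against 51.1% to 55.8%.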
